A study of Mus musculus with 4 samples.

Results

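The transcription factors and germ-cell-linked proteins that mark naive pluripotency were examined as a set of 10 genes, with Zfp42 (Rex1) as the leading member and Klf2, Klf4, Klf5, Esrrb, Tfcp2l1, Tbx3, Nr0b1, Dppa3 and Prdm14 as the others. A region of histone H3 trimethylated at lysine 4 (H3K4me3) was taken where it overlapped the body of a member or lay within 20 kb of one of its transcription start sites (TSSs), and a region of histone H3 acetylated at lysine 27 (H3K27ac) was taken where the deposited annotation named the member as its gene. By this rule 41 of 31315 listed regions belonged to the 10 genes, 20 of 19664 for H3K4me3 and 21 of 11651 for H3K27ac. Every member had at least 1 region. The share of all protein-coding genes with a region in any list was not counted, and in single lists it ranged from 16.8% to 34.1%. The rule for H3K27ac set no limit of distance. Having a region in some list is therefore not shown to set the members apart from other genes.

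The data came from chromatin immunoprecipitation and sequencing of mouse embryonic stem (ES) cells of 2 inbred strains, non-obese diabetic (NOD), which is prone to autoimmune diabetes, and C57BL/6 (B6). Both sets of cells were derived from blastocysts and grown in 2i, a medium with an inhibitor of the kinase MEK and one of GSK3. There were 4 libraries, 1 for each strain and mark, so no difference between the strains could be tested against replicates, and a difference between strains cannot be told apart from one between 2 cell cultures or 2 libraries. Each deposited list was called in one strain against the other, so it holds NOD-enriched or B6-enriched regions. The H3K4me3 libraries held 14791364 (B6) and 22750449 (NOD) tags, a ratio of 1.54, while for H3K27ac no depth was given. A gene that is missing from a list may still carry the mark at a like level in both strains.

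H3K4me3 is found at active promoters, and H3K27ac at active promoters and enhancers. Naive ES cells resemble the inner cell mass before implantation and rest on a network of factors around Oct4 and Sox2. In this network Klf4 acts downstream of LIF, and Esrrb and Tfcp2l1 are held down by Tcf7l1 until GSK3 is inhibited. Zfp42 encodes a zinc-finger protein related to YY1 and is used as a reporter of the naive state because its expression is lost early as cells leave it. Loss of the factors is followed by a formative and then a primed state, in which Otx2 and Fgf5 are expressed.

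The sequences below show the places at which the results on Zfp42 and Esrrb turn, with the promoter of Tfcp2l1 for comparison. All are from RefSeq and GRCm38.p6, the build that corresponds to mm10, and are written on the strand of the gene. Capitals mark exact matches to short words known to be bound by pluripotency factors. The Zfp42 promoter, chr8:43306960-43307259 on the minus strand, lay in a stretch that was not listed for either strain, between NOD-enriched H3K4me3 regions on both sides. It held 1 octamer word, ATTTGCAT, and 1 KLF word, GGGTGTGG, which is printed as its reverse complement.
Zfp42 promoter: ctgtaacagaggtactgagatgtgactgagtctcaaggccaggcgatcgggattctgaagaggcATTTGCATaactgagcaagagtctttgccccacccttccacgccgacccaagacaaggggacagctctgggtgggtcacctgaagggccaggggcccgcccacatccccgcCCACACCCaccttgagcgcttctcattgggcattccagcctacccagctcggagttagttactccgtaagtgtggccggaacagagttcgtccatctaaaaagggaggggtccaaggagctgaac
The middle 300 bp of the Zfp42 region with the most H3K4me3 tags per kb in the NOD list, chr8:43305713-43306012 on the minus strand, lay within the first exon of a predicted transcript and held none of the words.
Zfp42 region: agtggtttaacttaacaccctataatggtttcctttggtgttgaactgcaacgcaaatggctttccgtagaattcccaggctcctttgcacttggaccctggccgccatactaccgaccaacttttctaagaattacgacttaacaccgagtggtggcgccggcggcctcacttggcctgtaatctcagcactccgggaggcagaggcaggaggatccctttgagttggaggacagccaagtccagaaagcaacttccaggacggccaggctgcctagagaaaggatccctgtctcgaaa
The middle 300 bp of the B6-enriched H3K4me3 region over a predicted TSS of Esrrb, chr12:86467896-86468195 on the plus strand, held none of them either.
Esrrb region: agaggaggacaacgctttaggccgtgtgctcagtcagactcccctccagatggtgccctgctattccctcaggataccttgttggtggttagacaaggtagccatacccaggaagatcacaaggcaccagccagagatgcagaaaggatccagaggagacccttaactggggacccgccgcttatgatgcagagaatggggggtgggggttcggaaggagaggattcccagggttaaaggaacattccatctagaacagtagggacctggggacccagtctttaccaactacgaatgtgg
The Tfcp2l1 promoter, chr1:118627695-118627994 on the plus strand, held 2 KLF words of the form GGGCGTGG, again printed as reverse complements.
Tfcp2l1 promoter: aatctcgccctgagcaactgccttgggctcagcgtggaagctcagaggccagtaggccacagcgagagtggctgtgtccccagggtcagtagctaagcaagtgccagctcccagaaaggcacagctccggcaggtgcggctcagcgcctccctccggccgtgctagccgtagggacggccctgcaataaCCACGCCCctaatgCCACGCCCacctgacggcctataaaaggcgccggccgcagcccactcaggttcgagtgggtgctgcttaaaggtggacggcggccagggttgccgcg

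The words were searched on both strands in 7 promoter windows of 6 members, Zfp42, Klf2, Klf4, Esrrb, Tfcp2l1 and Nr0b1, and in 32851 windows of the same length from all genes. They were TCAAGGTCA (ERR and NR5A factors), GGGTGTGG and GGGCGTGG (KLF), ATTTGCAT (octamer), AACAATGG (SOX), TTCCNGGAA (STAT), GGTCTCTAA (PRDM14), AAGATGGC (YY1) and CTTTGAAC (TCF). No match overlapped another. GGGTGTGG was found in 1 of the 7 member windows and in 3.56% of all windows, GGGCGTGG in 1 and in 5.33%, and ATTTGCAT in 1 and in 1.74%. The other 6 words were in none of the 7 windows, and the shares of all windows that held them ranged from 0.256% for GGTCTCTAA to 2.75% for AAGATGGC. Windows of Klf5, Tbx3, Dppa3 and Prdm14 were not used here. In the middle 300 bp of all listed H3K4me3 regions, the share with a given word ranged from 0.199% to 2.82% in the NOD list. In the B6 list it ranged from 0.264% to 4.36%. The lack of a word in the printed Zfp42 and Esrrb regions therefore does not set them apart.

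Zfp42 stood out from the other members in the H3K4me3 lists. Of 5 NOD-enriched regions at the gene, 3 lay over its body and 2 upstream, and no B6-enriched region was within the window. In these regions the NOD library held 2705 tags and the B6 library 261, which is 1189 and 176 normalised tags, that is, tags per 10000000 tags of the library. The regions covered 10.4 kb, with a mean of 115 normalised tags per kb in NOD and 17.0 in B6. The NOD level was 6.74 times the B6 level (exact 95% interval 5.93 to 7.68). This interval and those below are Clopper-Pearson intervals of the split of tags between 2 libraries and cover counting error only. The regions were listed for passing a fold threshold, which favours high folds, and the intervals do not allow for this. The 5 regions held 89.5% of all NOD tags in the NOD-enriched regions of the 10 genes.

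**Figure D1:**
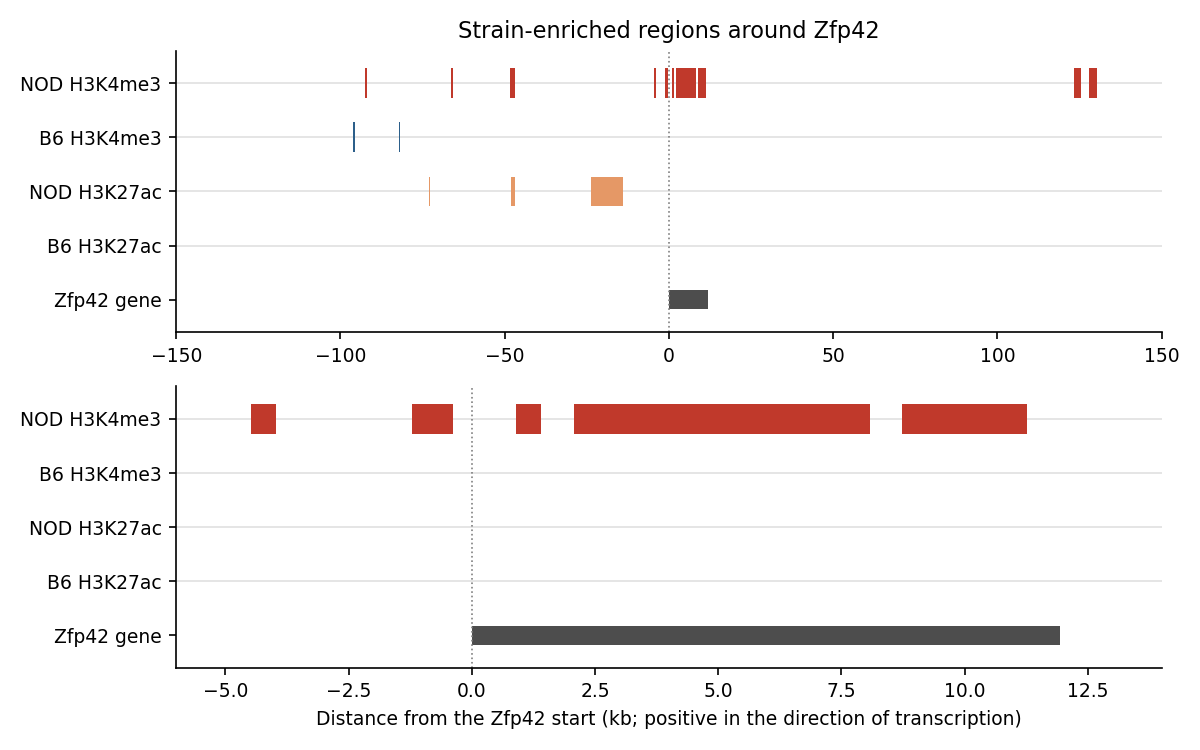
Listed regions around Zfp42 by distance from its curated TSS (x axis, kb, positive in the direction of transcription), with 1 row for each list and the gene body in grey, over 150 kb on either side (top) and close to the gene (bottom). NOD-enriched H3K4me3 regions lie on both sides of the TSS and along the gene, and the 9.76 kb NOD-enriched H3K27ac region lies upstream of them.

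The widest region, chr8:43298930-43304942, spanned 6012 bp within the gene, with exons 2 and 3 of the curated transcript and the first exon of a shorter predicted transcript inside it. It held 1436 NOD tags and 77 B6 tags, or 631 and 52.1 normalised tags, a fold of 12.1 (9.64 to 15.5). By tags it ranked 7 of 12077 regions in the NOD list. Per kb it held 105 normalised tags in NOD and 8.66 in B6, and it ranked 221 on that scale.

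The region chr8:43305612-43306112 was 500 bp wide and held 992 NOD tags and 161 B6 tags. Per kb this is 872 normalised tags in NOD, the highest value of all 12077 regions in the NOD list, and 218 in B6. The fold was 4.01 (3.39 to 4.76), close to the 4-fold threshold of the list. The region covered 433 of the 472 bp of the first exon of a predicted transcript and lay in the first intron of the curated transcript. Thus the place with the most NOD tags per kb also carried more B6 tags per kb than any other member region.

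The remaining Zfp42 regions held fewer tags. A region of 2536 bp at the 3′ end, chr8:43295747-43298283, held 154 NOD and 13 B6 tags (fold 7.70, 4.37 to 14.8) and covered 790 of the 1470 bp of exon 4, which holds the coding sequence. Upstream of the TSS, chr8:43307390-43308218 held 94 and 10 tags (fold 6.11, 3.18 to 13.2), and chr8:43310983-43311483 held 29 NOD tags and none from B6. With the limit of 3 tags that a count of 0 allows, the NOD level in the latter was at least 6.28-fold higher. Bounds of this kind take the tags of the enriched library as counted, and the exact interval of this split starts at 4.79. The curated TSS itself, at position 43307009, was in no listed region, 381 bp from the region upstream and 897 bp from the region downstream. Its tags were not analysed here.

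Over the body of Zfp42, which is 11.9 kb long, NOD-enriched H3K4me3 regions covered 75.8%. Among 4165 protein-coding genes of at least 5 kb with such a region over the body, this was the highest share. In the body of Tfcp2l1 the share was 4.48%, rank 732, and in that of Esrrb it was 0.850%, rank 2647. The 5 regions of the NOD list nearest to the 6012 bp region of Zfp42, by Euclidean distance of log2 normalised tags in both libraries over 2 libraries, were named by the nearest TSS as Ly6e, Gm41131, Stac2, Gm41986 and C330002G04Rik. Their folds ranged from 5.81 to 12.9 and their distances from 0.20 to 0.77 log2 units.

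Zfp42 also had 3 NOD-enriched H3K27ac regions and no B6-enriched one. The region chr8:43321005-43330766 was 9.76 kb wide with its centre 18.9 kb upstream of the TSS, and had a score of 417.8, where the score is the signal of the own strain minus that of the other on a scale the files do not state. It ranked 40 of 6126 regions in the NOD list, and 0.637% of the list scored higher. Its slope value, which the authors' pipeline uses to mark super enhancers at 1 or more, was 22.3. In the NOD list 500 regions (8.16%) passed that value. This was the only one of the 21 member H3K27ac regions that did. By score per bp this wide region ranked 2301.

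The other NOD-enriched H3K27ac regions named for Zfp42 were 47.5 kb upstream with a score of 36.4 and 72.9 kb upstream with a score of 7.10. The first, chr8:43353926-43355013, was annotated as an Lx7 element of the LINE L1 family. It overlapped a NOD-enriched H3K4me3 region, chr8:43353888-43355401, that lay outside the 20 kb window and held 143 NOD and 10 B6 tags (fold 9.30, 4.91 to 19.8). Within 150 kb of the TSS the NOD lists had 10 H3K4me3 and 3 H3K27ac regions, and the B6 lists had 2 and none. On the far side of the gene, NOD-enriched H3K4me3 regions lay closest to Triml1 (234 NOD and 15 B6 tags) and Triml2 (215 and 32 tags).

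The listed H3K4me3 regions of the other 9 members held fewer tags than most of those at Zfp42. In the NOD list there were 10 of them, with 17 to 68 NOD tags and 0 to 5 B6 tags. Per kb these held 14.9 to 27.3 normalised tags in NOD, where the median of the whole list was 24.6. The B6 list had 5 member regions, each 500 bp wide, with 16 to 28 B6 tags and 0 to 9 NOD tags, or 21.6 to 37.9 normalised tags per kb in B6 beside a list median of 25.6. Apart from Zfp42, the member regions were thus of the size of a typical listed region. The median fold of all member regions was 6.18 in the NOD list and 8.20 in the B6 list, and the medians over the whole lists were 6.07 and 8.20. Regions with 0 tags in the other library entered these medians with a lower bound, set by a floor of 3 tags. They made up 34.9% of the NOD list and 37.7% of the B6 list. The B6 member median is itself such a bound, that of a Dppa3 region.

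**Figure D2:**
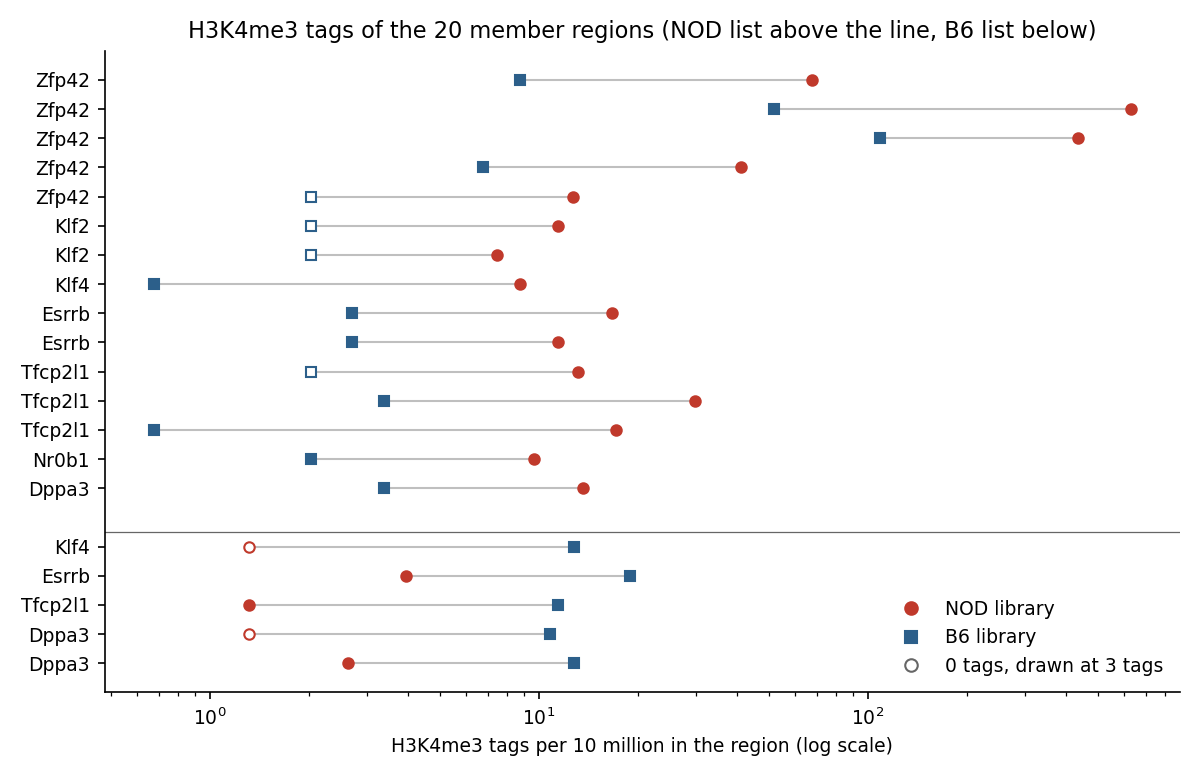
Normalised H3K4me3 tags (tags per 10000000, x axis, log scale) in the NOD library (circles) and the B6 library (squares) for each of the 20 member regions (y axis, 1 row each), with open symbols for 0 tags drawn at 3 tags. The first 4 Zfp42 regions have more NOD tags than any region of the other 9 genes, and the 5 B6-enriched regions below the line are all low.

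**Figure D3:**
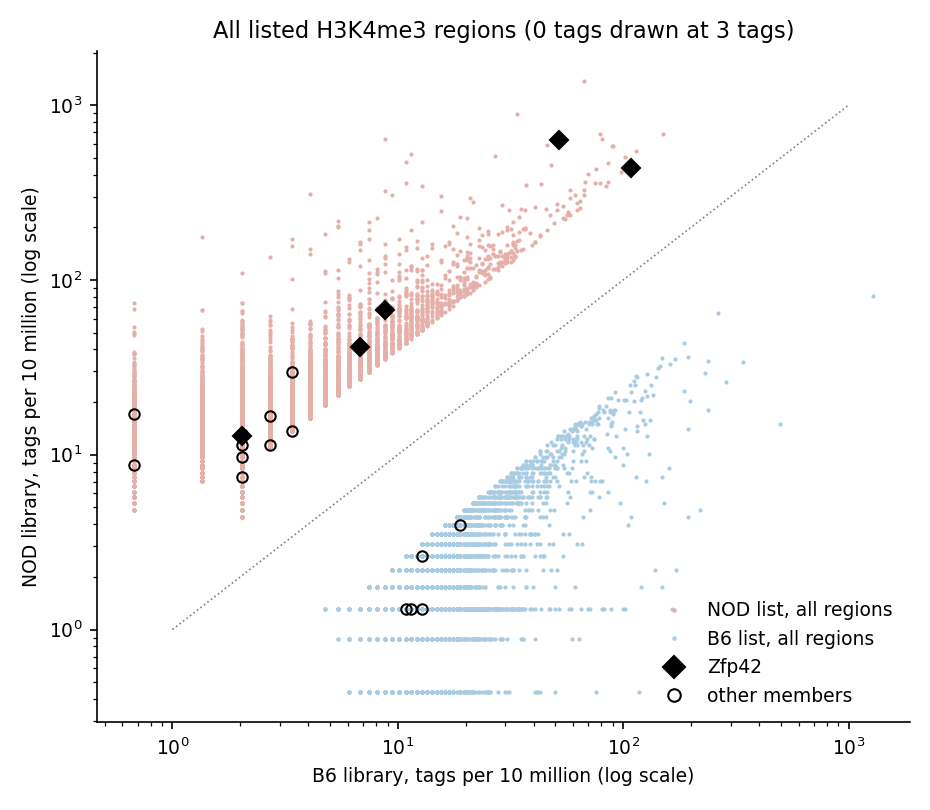
Normalised tags in the B6 library (x axis) and the NOD library (y axis), both on log scales, for all regions of the NOD and B6 H3K4me3 lists, with 0 tags drawn at 3 tags, a dotted line of equal levels, and member regions in black. Of the black symbols, 2 of Zfp42 lie at the upper end of the NOD list, and the other members lie in the dense lower part of both lists.

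Klf2, Klf4 and Klf5 encode Krüppel-like factors that maintain self-renewal together. Klf2 had 2 NOD-enriched H3K4me3 regions upstream, both without a B6 tag. The nearer one, 6.95 kb from the TSS, held 17 NOD tags (at least 3.68-fold higher, exact interval from 2.68). The farther one, chr8:72300071-72300571 at 18.7 kb, held 26 NOD tags (at least 5.63-fold higher, exact interval from 4.27). It was closer to the TSS of Gm40505. One B6-enriched H3K27ac region was named for Klf2, 21.9 kb wide with its centre 45.5 kb downstream in an intron of another gene, and its score of 7.83 ranked 4886 of 5525.

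At Klf4 the H3K4me3 regions went in both directions, and both lay outside the gene. A NOD-enriched region 17.9 kb downstream of the TSS, chr4:55514346-55514846, held 20 NOD tags and 1 B6 tag, a fold of 13.0 with an interval of 2.08 to 539. A B6-enriched region 16.4 kb upstream, chr4:55548643-55549143, held 19 B6 tags and none from NOD (at least 9.74-fold higher in B6, exact interval from 7.18). This B6-enriched region was closer to the TSS of Gm34343 than to that of Klf4. A B6-enriched H3K27ac region, chr4:55515138-55515400, with a score of 9.05, began 292 bp from the end of the NOD-enriched H3K4me3 region. Adjacent regions of the 2 marks were thus listed for different strains. A NOD-enriched H3K27ac region lay 46.2 kb downstream with a score of 18.3, rank 2305.

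Klf5 had no listed H3K4me3 region, and most of its H3K27ac regions were B6-enriched. Of these, 3 were in the B6 list, with scores of 44.8 at 23.2 kb upstream, 22.6 at 967 bp downstream of the TSS and 22.4 at 239 kb downstream. The highest, chr14:99275020-99276029, ranked 708 of 5525. The region at 967 bp, chr14:99299419-99299897 in the first intron, was the only member H3K27ac region with its centre within 1 kb of a TSS, a place that 10.01% of the B6 list and 16.6% of the NOD list had. The NOD list held 1 Klf5 region, 19.7 kb upstream, with a score of 8.79.

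Esrrb encodes an orphan nuclear receptor and Tfcp2l1 a Grainyhead-like factor, both induced by inhibition of GSK3. Both genes had regions in both H3K4me3 lists, all of them with their centres in introns. At Esrrb the B6-enriched region chr12:86467795-86468295 lay over the TSS of a predicted internal transcript and held 28 tags in B6 and 9 in NOD (fold 4.79, 2.20 to 11.5). Of the 2 NOD-enriched regions, chr12:86475951-86476813 held 38 NOD and 4 B6 tags (fold 6.18, 2.22 to 23.8), and the other held 26 and 4 (fold 4.23, 1.47 to 16.7). The B6-enriched region thus lay nearer to the 5′ end of the gene than both NOD-enriched ones, and Esrrb had no H3K27ac region in either list.

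Tfcp2l1 had 3 NOD-enriched H3K4me3 regions in a row, 17.6 to 22.5 kb into the gene. The middle one, chr1:118648017-118649320, was 1303 bp wide and held 68 NOD and 5 B6 tags (fold 8.84, 3.61 to 28.1). Upstream of it was a region with 30 NOD tags and no B6 tag (at least 6.50-fold higher, exact interval from 4.97). Downstream of it was a region with 39 NOD tags and 1 B6 tag (fold 25.4, 4.29 to 1027). Nearer to the TSS, at 5.93 kb, the B6-enriched region chr1:118633623-118634123 held 17 B6 and 3 NOD tags (fold 8.72, 2.52 to 46.4). The H3K27ac regions named for Tfcp2l1 were all beyond the gene, at 62.4 and 149 kb downstream of the TSS with scores of 10.5 and 10.3 in the B6 list, and at 129 kb with a score of 7.88 in the NOD list. All 3 scored below the median of their lists.

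Tbx3 encodes a T-box repressor that acts in the LIF pathway, and Nr0b1 (Dax1) an X-linked nuclear receptor that binds Oct4. Each had a single region in all lists. Tbx3 had a B6-enriched H3K27ac region 14.1 kb upstream, chr5:119656479-119657075, with a score of 21.7, rank 1559. Nr0b1 had a NOD-enriched H3K4me3 region in its intron, chrX:86193036-86193536, with 22 NOD and 3 B6 tags (fold 4.77, 1.43 to 24.9).

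Dppa3 (Stella) protects maternal methylation in the early embryo, and Prdm14 represses lineage genes and DNA methyltransferases in ES cells. Dppa3, like Klf4 and Tfcp2l1, had a region in each of the 4 lists. A NOD-enriched H3K27ac region, chr6:122617503-122626910, was 9.41 kb wide, reached 486 bp past the TSS and scored 44.8, rank 1061, but 4.76 per kb, and by score per bp it ranked 5954 of 6126. Inside it lay the B6-enriched H3K4me3 region chr6:122623651-122624151, with 16 B6 tags and none from NOD. The level there was at least 8.20-fold higher in B6 (exact interval from 5.93). The H3K27ac score is a single value over the whole wide region and was not given within these 500 bp. Farther along, the NOD-enriched H3K4me3 region 7.03 kb downstream of the TSS held 31 NOD and 5 B6 tags (fold 4.03, 1.55 to 13.3). The B6-enriched region at 17.8 kb held 19 B6 and 6 NOD tags (fold 4.87, 1.87 to 14.9) and was closer to the TSS of LOC115490479. A B6-enriched H3K27ac region 36.7 kb downstream scored 39.0, rank 836, over 262 bp.

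Prdm14 had no listed H3K4me3 region but had H3K27ac regions of both strains. The NOD-enriched ones scored 16.8 at 19.03 kb downstream of the TSS and 13.3 at 5.32 kb upstream. The B6-enriched ones scored 13.5 at 1.39 kb upstream, 11.3 within exon 7 of 8, and 8.60 at 89.6 kb upstream. These places did not coincide, and 2 of the B6-enriched regions lay between the NOD-enriched ones.

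**Figure D4:**
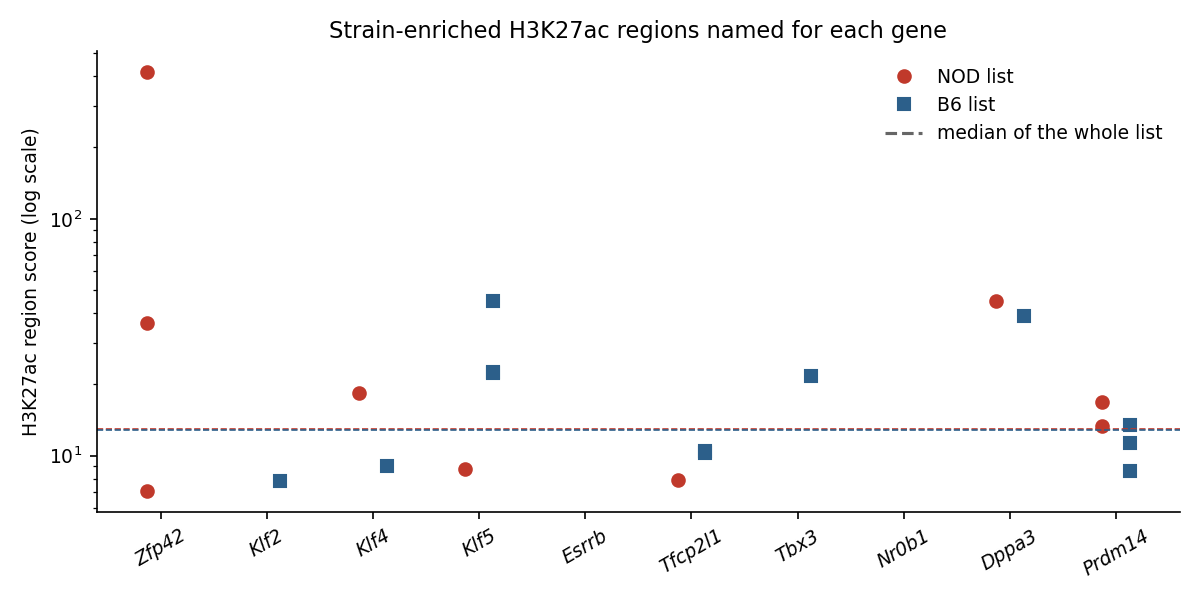
Score (y axis, log scale, own strain minus other strain) of each H3K27ac region named for a member (x axis) in the NOD list (circles) and the B6 list (squares), with dashed lines for the medians of the whole lists. The Zfp42 region at 417.8 lies far above all others, which do not exceed 44.8, and 2 of the Klf5 squares (22.4 and 22.6) overlap.

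Counted over genes, 7 of the 10 members had a NOD-enriched H3K4me3 region, beside 34.1% of 21774 protein-coding genes by the same rule. Of the 10, 4 had a B6-enriched H3K4me3 region (23.7% of all genes). NOD-enriched H3K27ac regions were named for 6 members (18.3% of all genes) and B6-enriched ones for 7 (16.8%). Klf5, Tbx3 and Prdm14 had no region in either H3K4me3 list, and Esrrb and Nr0b1 none in either H3K27ac list. In both H3K4me3 lists there were 4 members, beside 10.1% of all genes, and in both H3K27ac lists 5, beside 5.3%. Zfp42 had regions of both marks in the NOD lists only. The 10 members were chosen with earlier results of these data known, so these counts do not set them apart from other genes.

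The same counts were made for other pluripotency genes. Of 28 core and general pluripotency genes, 20 (71.4%) had a NOD-enriched H3K4me3 region and 11 a B6-enriched one, and 11 and 10 had an H3K27ac region in the NOD and B6 lists. Of 19 formative and primed genes, these numbers were 10, 5, 5 and 8. Regions over a TSS were few. Fbxo15, an Oct4 target, had 88 NOD and 5 B6 tags (fold 11.4, 4.72 to 36.1), and T (brachyury) had 64 and 10 (fold 4.16, 2.12 to 9.09). Otx2, a factor of the primed state, was B6-enriched with 36 B6 and 6 NOD tags (fold 9.23, 3.85 to 26.8).

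**Figure D5:**
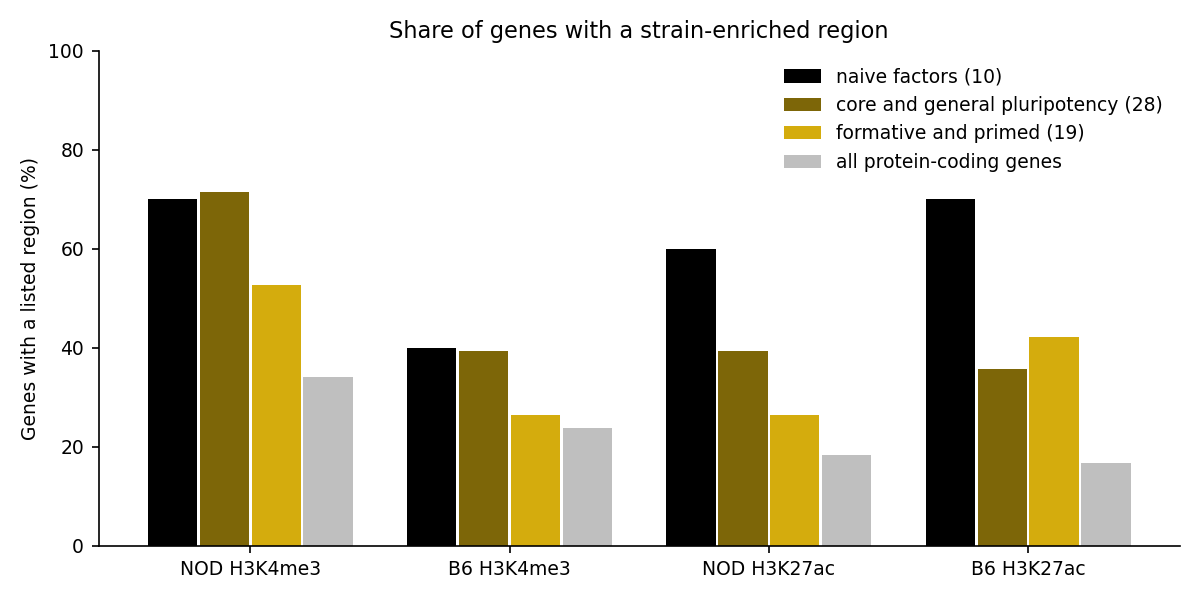
Share of genes with a listed region (y axis, %) in each of the 4 lists (x axis) for the 10 naive factors, 28 core and general pluripotency genes, 19 formative and primed genes and all 21774 protein-coding genes. The naive factors are at 7 of 10 in the NOD H3K4me3 and B6 H3K27ac lists. All 3 gene lists lie above the background in each list, but by little for some. The trophectoderm markers, which are not drawn, were above it in each list too, at 4 of 7 for NOD H3K4me3 and 3 of 7 elsewhere. The formative and primed genes are at 5 of 19 (26.3%) for B6 H3K4me3, beside 23.7% of all genes.

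The label of naive cells was checked against markers of other cells. NOD-enriched H3K4me3 was found at 3 of 7 primitive endoderm markers, 4 of 7 trophectoderm markers, 0 of 6 markers of 2-cell-like cells and 0 of 5 fibroblast markers, and B6-enriched H3K4me3 at 2, 3, 1 and 2 of them. In the H3K27ac lists the NOD counts were 2, 3, 3 and 1, and the B6 counts 0, 3, 0 and 2. Of all protein-coding genes, 34.1% had a NOD-enriched and 23.7% a B6-enriched H3K4me3 region. For H3K27ac these shares were 18.3% and 16.8%. Counts from marker lists this short do not set the markers apart from all genes. The listed regions over a TSS were NOD-enriched, at the primitive endoderm markers Gata4 (118 NOD and 16 B6 tags, fold 4.79) and Gata6 (152 and 15, fold 6.59). For trophectoderm they were at Krt18 (194 and 16, fold 7.88) and Krt8 (279 and 26, fold 6.98). By the window rule, Gata4 and Krt8 also had a B6-enriched H3K4me3 region, as did Foxa2, Gata3 and Elf5. Sox17, Sox7 and Pdgfra had no region in any list. By RT-PCR, the paper found no expression of differentiation markers, including Gata4 and Sox17, in its ES cell lines. The lists give differences and not levels, so they do not show whether either culture held such cells, and their part in the results at the naive factors was not tested.

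Overlaps of the marks were few in number at the members. By at least 1 bp, 0 of the 15 member H3K4me3 regions in the NOD list overlapped H3K27ac enriched in the same strain, where 5.81% of the whole list did, and in the B6 list this was 0 of 5, where 3.62% did. Counts this small do not set the members apart from the lists. In the other direction, 2 of 9 NOD-enriched member H3K27ac regions overlapped a listed H3K4me3 region of either strain (10.4% of the list), and 1 of 12 B6-enriched ones did (6.41%). At Zfp42 the upstream H3K27ac region began 9.52 kb from the nearest H3K4me3 region. Member H3K27ac regions were mostly intergenic, 9 of 9 in the NOD list and 8 of 12 in the B6 list, beside 43.6% and 39.4% of the lists. The median share of soft-masked repeat bases was 37.4% in the 15 NOD-enriched member H3K4me3 regions and 17.0% over the NOD list. In the 5 B6-enriched member regions it was 18.8%, beside 16.2% over the B6 list. The Zfp42 region with the most tags per kb had 15.4%, while all other Zfp42 regions had 42.3% to 45.9%.

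Members differed in their surroundings. Zfp42 and Klf2 are on chromosome 8, which had 11.4 NOD-enriched and 5.36 B6-enriched H3K4me3 regions per Mb, and 68.1% of its listed H3K4me3 regions were NOD-enriched. Dppa3 is on chromosome 6, where this share was 35.0%. Over 17 other autosomes it ranged from 59.0% to 65.9%. These had 3.44 to 5.59 NOD-enriched regions per Mb (median 4.35) and 2.11 to 3.40 B6-enriched ones (median 2.59). The density on chromosome 8 was thus above these ranges in the lists of both strains. Nr0b1 is on chromosome X, with 211 NOD-enriched and 56 B6-enriched H3K4me3 regions, a share of 79.0%. For H3K27ac, NOD-enriched regions were 63.6% of those on chromosome 8, 35.1% on chromosome 6 and 69.3% on chromosome X. Within 5 Mb of Zfp42 the NOD list held 102 H3K4me3 regions and the B6 list 62, and within 5 Mb of Klf2 they held 128 and 52. The part of these chromosome-wide differences in the member results was not tested.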

How the data were processed

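ChIP-Seq libraries of H3K4me3 and H3K27ac from NOD and B6 ES cells were analysed, 1 library per strain and mark. The methods name alignment with bowtie2 to mm10 and region calling with HOMER, whereas the submitters' processing notes list mm9, CASAVA 1.8.2 and STAR 2.2.0c. The deposited file headers name mm10, all regions end within the chromosomes of GRCm38.p6, and 89.8% of deposited TSS distances in both H3K27ac lists matched its RefSeq TSSs within 10 bp.

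Per the file headers, H3K4me3 regions were called by the authors in histone style against the other strain, at 4-fold, a Poisson p-value of 1e-04, a size of 500 bp and a tag threshold of 8. The deposited tag counts are whole in B6 and were scaled by the authors to the B6 library in the NOD list. For NOD, whole tags were computed back from the totals of 14791364 (B6) and 22750449 (NOD), and 100% of values were within 0.1 tag of a whole number. The deposited signal is tags per 10000000 tags of the library. The deposited fold and p-value columns compare the 2 libraries and were not used. H3K27ac regions carry only a deposited score of the authors' super enhancer pipeline, so their depth is unknown.

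Tags were scaled to library totals here, with exact 95% intervals (scipy 1.17.1, Python 3.11.15). These were tested on simulated counts to which no threshold was applied. The test therefore does not cover the choice of regions by the 4-fold threshold, which favours high folds. A count of 0 was replaced by a floor of 3 tags. TSSs include predicted transcripts. Of 7776 gene names in the H3K27ac lists, 7540 were in RefSeq, and 2 genes of the comparison lists (Oct6 and Dux) were not found by that name. No p-value is given, since there were no replicates. All 10 members are named, with values for the region of most tags, regions over a TSS and the highest score in each list. The members and gene lists were chosen with earlier results of these data known. The alternatives were other windows, thresholds and scalings.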

Additional observations from a re-analysis of the deposited data

How the results depend on the processing

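Of 79 values under an alternative setting, 38 stayed within 1.5 times the reported count or rank, or within the exact interval of the reported fold, which is wide for small counts, and 41 did not. Over the gene body or within 5 kb of a TSS, 4 members had a NOD-enriched and 3 a B6-enriched H3K4me3 region (3 B6-enriched regions), and with 50 kb there were 8 B6-enriched regions. At 8-fold or more, 3 members and 4 regions remained past the threshold in the NOD list and 3 regions in the B6 list. With at least 50 own tags, these were 2 members and 5 regions in NOD, and 0 members and 0 regions in B6. Without regions that had no tag in the other library, 3 B6-enriched regions were left. For H3K27ac by position, 5 NOD-enriched regions, and 4 members with 5 regions in B6, were counted. At a score of at least 20, these were 2 members and 3 regions in NOD, and 3 members and 5 regions in B6. At a slope value of at least 1, the counts were 1 member and 1 region in NOD, and 0 and 0 in B6.

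The ratio of raw tags was 18.6 for Zfp42 and 6.33 (a lower bound) for Klf4 in B6. Divided by the median fold of the list on the chromosome, the NOD folds were 2.00 for Zfp42, 0.929 for Klf2, 2.14 for Klf4, 1.06 for Esrrb, 1.46 for Tfcp2l1, 0.786 for Nr0b1 and 0.689 for Dppa3, and the B6 folds were 1.17 for Klf4, 0.566 for Esrrb, 1.01 for Tfcp2l1 and 0.528 for Dppa3. By score per bp, the NOD ranks were 2301 for Zfp42, 5954 for Dppa3 and 767 for Prdm14, and the B6 ranks 1453 for Klf5, 2000 for Tfcp2l1, 2666 for Tbx3 and 33 for Dppa3. The folds and ranks change by the construction of these scales. The cause of other changes was not tested. No paired analysis was possible because each strain and mark had 1 library and no test was made. Small counts limit the depth, as the intervals of regions with 1 tag in the other library show.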
